A study of Mus musculus with 36 samples.

Results

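The genes that encode the core pluripotency factors of mouse embryonic stem cells, Pou5f1 (the gene of Oct4), Sox2 and Nanog, were examined together with Dppa3, the neighbour of Nanog, for where the 3 factors themselves bound. The members are all peaks of 14 lists that fall in 3 windows of the mm9 genome: chr17:35590000-35700000 around Pou5f1, chr3:34500000-34700000 around Sox2, and chr6:122540000-122720000 around Nanog and Dppa3. Across all 14 lists, 385 of 292990 peaks lay in these 490 kb. When overlapping peaks of the 11 factor lists were merged, they formed 59 regions of 71038 in the genome, of which 12 were in the Pou5f1 window, 20 in the Sox2 window and 27 in the Nanog-Dppa3 window.

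The study mapped Oct4, Sox2, Nanog and the histone mark H3K4me3 by ChIP-seq to ask how factor binding is rearranged when embryonic stem cells leave serum for 2i. KH2, an established mouse embryonic stem cell line, was grown in serum medium and then moved to 2i for 24 h or for 3 passages. The name 2i stands for a defined medium with inhibitors of the MEK and GSK3 kinases that holds the cells in a naive ground state. All cells were given LIF, and irradiated embryonic fibroblasts served as a feeder layer, so feeder chromatin can be part of a sample. Oct4 was mapped in serum and at 24 h. For Sox2 there are lists of serum, 24 h and 3 passages. Nanog was mapped with 2 lots of one antibody: lot 1 in serum, at 24 h and at 3 passages, and lot 2 in KH2 cells from serum with the label GFP-high, in KH2 cells at 24 h and in TKO cells at 24 h. TKO stands for a DNMT triple knockout, which lacks DNA methyltransferases. The labels used here do not say what the GFP reports, or how many clones of TKO cells there were. H3K4me3 was mapped in KH2 cells at the same 3 stages.

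Oct4 and Sox2 are partners that bind side by side on a composite DNA element, and Nanog, a homeodomain factor, often occupies the same enhancers. Together they are known to bind the regulatory DNA of their own and of each other's genes, which gives an interlocked circuit of auto- and cross-binding. Pou5f1 is known to be driven by a distal and a proximal enhancer just upstream of its promoter, Sox2 by enhancers beside the gene and by a far downstream control region, and Nanog by a composite Oct4-Sox2 element close to its promoter and by upstream enhancers. Dppa3, also called Stella, is a maternal factor that protects DNA methylation in the early embryo and is variably expressed in stem cells grown in serum.

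Every condition is 1 peak list without replicate values, so the values below are descriptions without a test, and a difference between 2 lists cannot be set against the spread between samples. The lists held 5011 to 41755 peaks, with a lowest −log10 q of 3.69 for Sox2 at 24 h and of 86.4 for Oct4 in serum. A region without a peak in a list was therefore not called at that list's own threshold, and may still be bound. Fold enrichment is the authors' value for the peak over its control. Folds of different lists are not on one scale and are given side by side. A peak's percentile is its place by fold within its own list, where 100 is the highest. Of the Nanog lists, that of TKO cells stood apart in having 9.50% of its peaks on chromosome 6, against 5.98% to 6.17% in the KH2 lists. The lists of Sox2 at 24 h and of Nanog lot 1 in serum and at 24 h held 21 to 42 peaks on Y and 0 or 1 on unplaced sequences, whereas the other lists held 0 to 12 on Y and 3 to 45 on unplaced sequences. Whether one set of reference sequences served all lists is not stated in the labels or headers.

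Positions are given as the distance of a summit from the summit of the H3K4me3 peak with the highest fold in its window. H3K4me3 marks active promoters, and these 3 peaks were taken, as an assumption, to mark the promoters of Pou5f1, Sox2 and Nanog. The anchor peaks were chr17:35642126-35646300, chr3:34548744-34554768 and chr6:122656346-122661139, all in the list of 3 passages. All 3 genes lie on the plus strand in RefSeq, so lower coordinates are called upstream. The gene tables at hand are of another build, GRCm38.p6, and were used for gene order alone, so no region is assigned to an exon, an intron or a UTR.

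By fold enrichment, the highest peak of each factor at these loci was on the Sox2 side. In all 5 lists of Oct4 and Sox2, the site with the highest fold in the 3 windows lay 2.02 kb downstream of the Sox2 H3K4me3 summit. In all 6 Nanog lists it lay 93.40 kb downstream of that summit. By −log10 q, the authors' measure of confidence in a peak, the same 2 sites led in 8 of the 11 lists. In the other 3 lists the Pou5f1 site 3.05 kb upstream led: at 359.3 against 346.2 at the Sox2 site for Sox2 in serum, at 156.6 against 145.9 for Sox2 at 24 h, and at 426.5 against 289.5 at the far Sox2 site for Nanog lot 1 in serum.

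Co-occupancy was frequent in the windows. Of the 59 regions, 11 held Oct4, Sox2 and Nanog (lot 1) in serum, which is 18.6% against 5.07% of all factor regions in the genome. At 24 h of 2i there were 13 such regions, or 22.0% against 8.14%. The 11 regions of serum all held the 3 factors at 24 h as well, or 18.6% against 4.14%. In serum 1 of them was in the Pou5f1 window, 6 in the Sox2 window and 4 in the Nanog-Dppa3 window, and the 2 that were added at 24 h were in the last of these. A total of 9 regions, or 15.3% against 3.11%, were called in all 11 factor lists: 1 at Pou5f1, 5 at Sox2 and 3 at Nanog-Dppa3. At least 6 lists called 22 regions (37.3% against 20.2%), and 16 regions were called in 1 list (27.1% against 41.0%).

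The factors were called at unequal numbers of the 59 regions. The counts join 2 lists of Oct4, 3 of Sox2 and 6 of Nanog. The lowest −log10 q was 85.9 and 86.4 in the Oct4 lists, 3.69 to 17.3 for Sox2 and 12.8 to 27.6 for Nanog. The part of these differences in the counts was not tested. Oct4 was called at 15 regions in at least 1 list (25.4% against 12.3%), Sox2 at 27 (45.8% against 28.3%) and Nanog at 57 (96.6% against 95.6%, a share near the background). All 15 Oct4 regions also held Sox2, against 81.5% of Oct4 regions in the genome, and 14 held Nanog, or 93.3% against 91.2%. Of the 27 Sox2 regions, 25 held Nanog, or 92.6% against 86.8%. Nanog without Oct4 or Sox2 in any list was found at 32 regions, or 54.2% against 69.4%. It was called in all 6 Nanog lists at 15 regions, or 25.4% against 13.1%.

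**Figure D1:**
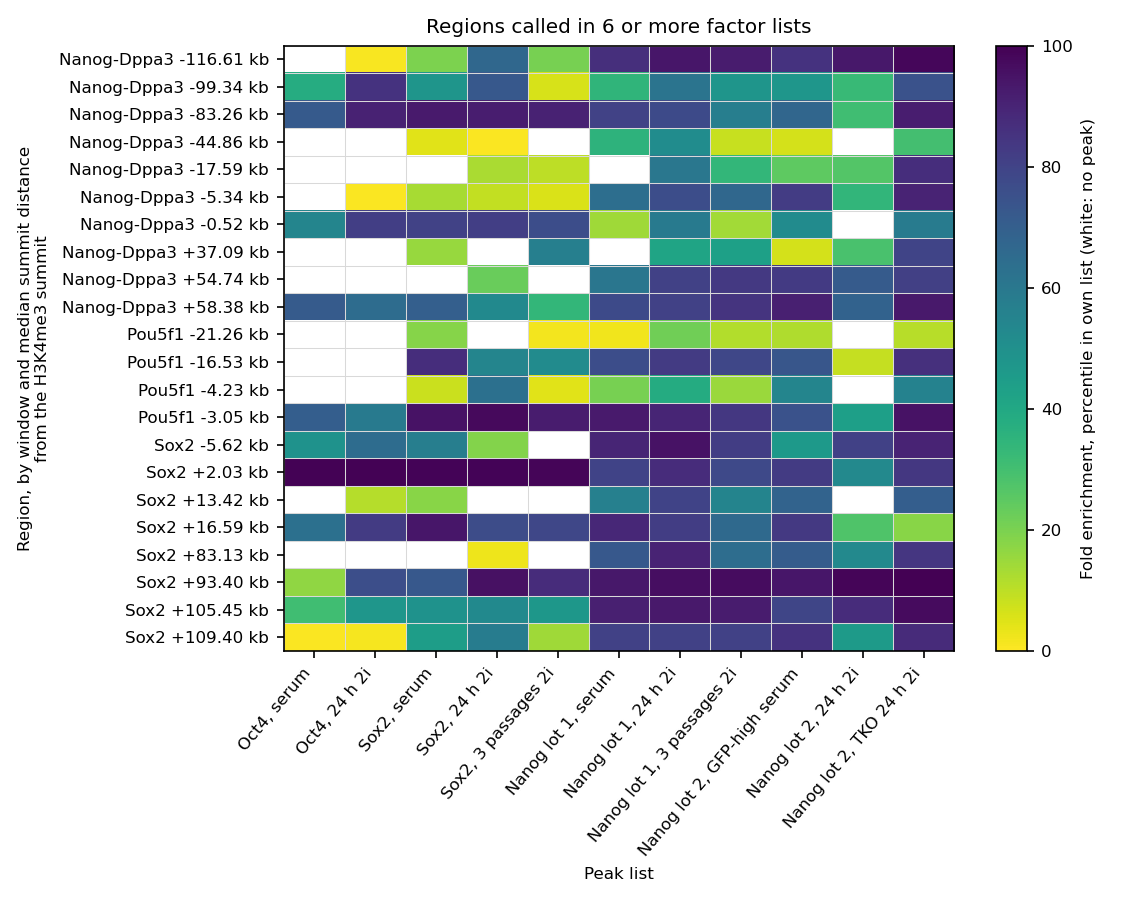
Within-list percentile of the fold enrichment (colour, 0 to 100; white, no peak) of the 22 regions called in 6 or more factor lists, with regions in rows, labelled by window and median summit distance from the H3K4me3 summit in kb, and the 11 factor lists in columns. The row of Sox2 +2.03 kb is darkest in the Oct4 and Sox2 lists, and the row of Sox2 +93.40 kb is dark in all 6 Nanog lists.

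In the Pou5f1 window, Oct4 was called at 2 of the 12 regions in serum and at the same 2 at 24 h. Of all factor regions in the genome, 12.3% held Oct4 in at least 1 list, and 12 regions are few to set against that share. The promoter of Pou5f1, shown because the H3K4me3 peak and the shared factor site lie beside it, is given as the 250 bases before the first of 2 starts in RefSeq, chr17:35505782-35506031, plus strand, GRCm38.p6. Capitals mark a GC box (GGGCGG or its reverse complement), from 45 to 40 bases before the start.
Pou5f1 promoter: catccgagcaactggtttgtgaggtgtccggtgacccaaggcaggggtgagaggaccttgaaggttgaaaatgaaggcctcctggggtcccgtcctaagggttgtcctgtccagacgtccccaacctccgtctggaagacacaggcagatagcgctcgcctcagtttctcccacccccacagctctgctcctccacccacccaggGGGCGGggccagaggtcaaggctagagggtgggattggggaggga
Of 32536 RefSeq promoter sequences searched on both strands, 33.0% held a GC box. No octamer (ATGCAAAT), composite Oct4-Sox2 element (TTGT, any base, then ATGCA) or Sox element (CATTGT) was found on either strand of these 250 bases, which concerns these letters in this stretch only.

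One site carried all 3 factors at Pou5f1. The region chr17:35640373-35643193 was called in all 11 lists, with a summit 3.05 kb upstream of the H3K4me3 summit. The 11 summits there spanned 57 bp, from 35640981 to 35641038. Oct4 had a fold of 23.5 in serum and 22.7 at 24 h. For Sox2 the folds were 26.3 in serum, 22.3 at 24 h and 14.8 at 3 passages, at percentiles of 95.1, 97.5 and 92.6. Nanog of lot 1 had folds of 38.2, 30.4 and 19.4 in the same order. With lot 2 they were 19.2 in GFP-high serum, 10.2 in KH2 at 24 h and 43.8 in TKO cells. The site was thus in the top 10% of its list in all 3 Sox2 lists, in Nanog lot 1 in serum and in TKO cells. Its percentiles by fold were lower for Oct4, at 70.3 and 59.3, and lowest for Nanog lot 2 in KH2 at 24 h, at 43.4. By −log10 q these peaks were at 92.8, 87.6 and 75.2, in that order, so their place depends on the measure.

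Upstream of this site Sox2 and Nanog were called without Oct4. The region 16.53 kb upstream, chr17:35627170-35628045, was called in all 9 lists of Sox2 and Nanog and in neither Oct4 list. Its folds were 18.6, 6.22 and 6.77 for Sox2, 20.4, 23.3 and 16.4 for Nanog lot 1, and 18.4, 6.5 and 24.1 for lot 2, each in the order of the conditions above. The region 4.23 kb upstream, chr17:35638994-35640140, was called in 8 lists, for Sox2 in all 3 and for Nanog in all but KH2 at 24 h with lot 2. Its folds ran from 4.29 for Sox2 at 3 passages to 12.2 for Nanog in GFP-high serum. A region 21.26 kb upstream, chr17:35621967-35623096, was called in 7 lists with folds of 3.96 to 7.37, and in no list of Oct4. Upstream of the H3K4me3 peak, Oct4 was thus called at the shared site only. The lowest −log10 q was 86.4 and 85.9 in the Oct4 lists, so Oct4 peaks weaker than that could not appear. The Sox2 peaks 4.23 and 21.26 kb upstream had a −log10 q of 40.2 or less.

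The region 36.43 kb downstream, chr17:35680063-35680978, held Oct4 and Sox2 in all 5 of their lists and Nanog in none. It was chosen after its values were seen. Oct4 had a fold of 13.5 in serum and 30.9 at 24 h, at percentiles of 21.4 and 77.9, and Sox2 had 7.45 in serum, 10.5 at 24 h and 6.38 at 3 passages. An H3K4me3 peak lay there at 3 passages only, with a fold of 6.20. A region 39.72 kb downstream, chr17:35683384-35684142, held Nanog in all 4 lists of cells in 2i and in neither serum list, and no other factor. Its Nanog folds were 19.3 at 24 h and 10.96 at 3 passages with lot 1, and 5.83 in KH2 and 12.8 in TKO cells with lot 2. Nearer to the H3K4me3 summit, 32.59 kb downstream, Nanog was called in serum too, with lot 1 folds of 17.9, 26.7 and 22.1. With lot 2 it had 9.20 in KH2 at 24 h and 7.10 in TKO cells there, and no peak in GFP-high serum. This region was also chosen after its values were seen. Sox2 and Nanog met again 41.74 kb downstream, in chr17:35685479-35686027, with Sox2 folds of 7.81 in serum and 4.29 at 3 passages and a Nanog fold of 8.50 in serum with lot 1. That region too was chosen after its values were seen. In RefSeq the genes that follow Pou5f1 are Tcf19, Cchcr1, Psors1c2 and Cdsn, so these sites may belong to another gene.

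**Figure D2:**
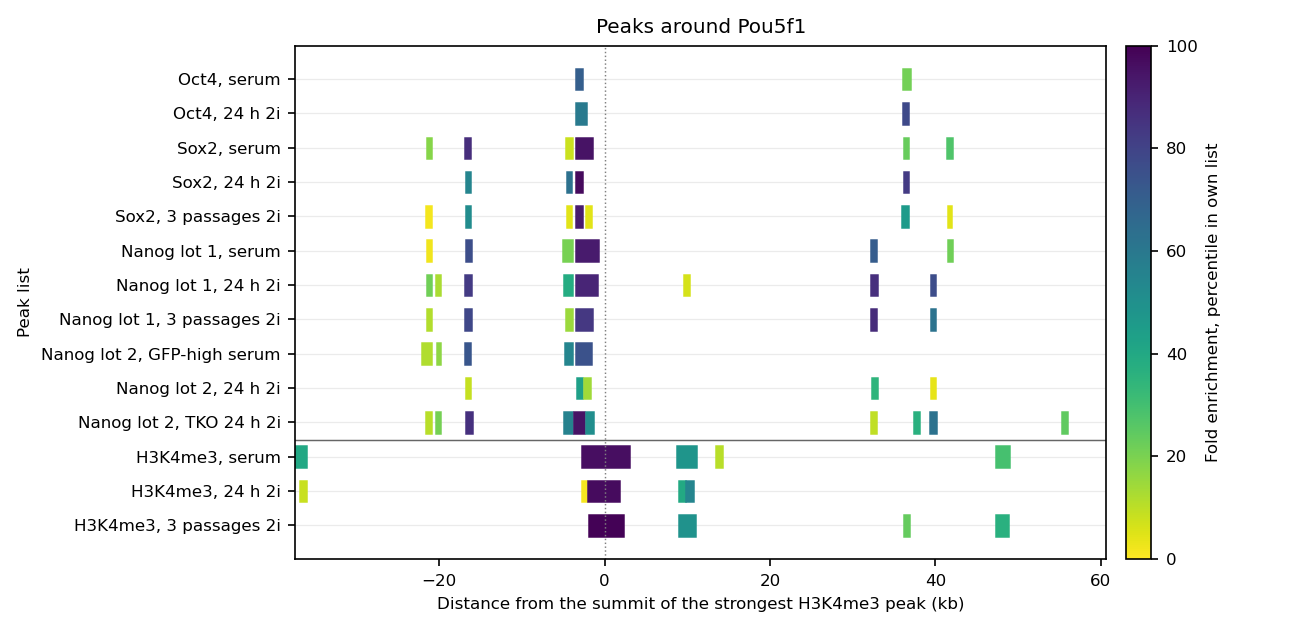
Peaks of the 14 lists (rows) around Pou5f1, drawn to scale against the distance from the H3K4me3 summit in kb and coloured by the percentile of their fold within their own list. A column of peaks in every factor row stands 3.05 kb upstream of the H3K4me3 summit, and farther upstream the Oct4 rows are empty.

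In the Sox2 window, the site with the highest Sox2 fold was also the one with the highest Oct4 fold. The Sox2 promoter, shown for its H3K4me3 peak and the binding just downstream, is the 250 bases chr3:34649745-34649994 before the RefSeq start, plus strand, GRCm38.p6. Capitals mark GC boxes, from 223 to 218 bases before the start on the plus strand and from 111 to 106 on the minus strand.
Sox2 promoter: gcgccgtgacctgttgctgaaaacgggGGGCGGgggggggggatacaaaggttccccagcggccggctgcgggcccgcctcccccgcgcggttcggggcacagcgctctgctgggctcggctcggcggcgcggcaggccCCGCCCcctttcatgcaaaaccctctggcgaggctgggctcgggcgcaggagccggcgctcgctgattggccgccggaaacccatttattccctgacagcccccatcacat
The octamer, the composite element and the Sox element, as spelled above, were not found in this stretch.

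The summit 2.02 kb downstream of the Sox2 H3K4me3 summit was called in all 11 lists, in the region chr3:34551579-34554336. Oct4 had a fold of 84.4 in serum, rank 25 of 5011, and 104.9 at 24 h, rank 50 of 7820. In both Oct4 lists the next site in the 3 windows, the one 83.26 kb upstream of Nanog, had a fold of 24.0 and 44.8. Sox2 itself had folds of 38.9 in serum, 27.4 at 24 h and 25.1 at 3 passages, which rank 113 of 13128, 173 of 15310 and 104 of 8749. Nanog had folds of 22.7, 27.8 and 16.0 with lot 1, and of 25.2 in GFP-high serum, 11.5 in KH2 at 24 h and 22.1 in TKO cells with lot 2. Oct4 and Sox2 were thus near the top of their lists here in every condition, and Nanog was at percentiles of 52.8 to 87.5.

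Nanog alone had further summits in the same region. A summit 3.04 kb downstream was called in all 4 Nanog lists of cells in 2i and in neither serum list, with folds of 6.30 at 24 h and 4.59 at 3 passages for lot 1, and of 10.9 in KH2 and 20.6 in TKO cells for lot 2. A separate summit 1.33 kb downstream was called in both serum lists, with folds of 6.82 and 8.53. Its position lay inside Nanog peaks with other summits at 24 h and 3 passages with lot 1 and in TKO cells, so it was not particular to serum. Both summits were chosen after their values were seen. Neither had a summit of Oct4 or Sox2, but the Oct4 peak of serum, chr3:34552426-34554109, extended over the summit 3.04 kb downstream.

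Upstream of Sox2, the region 5.62 kb away, chr3:34544908-34546331, was called in 10 lists and lacked Sox2 at 3 passages. Oct4 had folds of 18.2 and 24.4 and Sox2 of 10.7 in serum and 4.57 at 24 h. Nanog had folds of 32.3, 40.2 and 18.1 with lot 1, and of 10.8, 20.8 and 29.5 with lot 2. Nanog at 24 h with lot 1 was in the top 10% of its list here, at a percentile of 95.1.

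Downstream of the gene, the region 16.59 kb away, chr3:34566301-34568361, was called in all 11 lists. Its folds were 21.2 and 34.6 for Oct4, 24.6, 9.01 and 10.04 for Sox2, 31.2, 22.7 and 11.9 for Nanog lot 1, and 25.9, 8.35 and 7.96 for lot 2. Beside it, the region 13.42 kb away, chr3:34563475-34564778, held Oct4 at 24 h only, with a fold of 12.8, and Sox2 in serum only, with a fold of 6.99. Both values are low in their lists, at percentiles of 11.2 and 17.6. Nanog was called there in all 3 lists of lot 1, in GFP-high serum and in TKO cells, with folds of 9.64 to 21.4. H3K4me3 overlapped both regions in all 3 conditions.

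A far downstream cluster from 83.13 to 109.40 kb held the Nanog site with the highest fold. The region 93.40 kb away, chr3:34643183-34645199, was called in all 11 lists and overlapped no H3K4me3 peak. Nanog had folds of 40.4 in serum, 44.1 at 24 h and 37.7 at 3 passages with lot 1. With lot 2 it had 46.9 in GFP-high serum, 67.0 in KH2 at 24 h and 135.3 in TKO cells, where it ranked 79 of 38518. In every Nanog list this peak was at a percentile of 93.7 or more. Oct4 had folds of 12.8 and 29.7 at percentiles of 16.7 and 76.0, and Sox2 had 13.6, 18.3 and 12.3.

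The 2 regions beyond it were also called in all 11 lists. The region chr3:34654802-34657729 held 2 summits in every list, 104.84 and 106.08 kb downstream. At the first, Oct4 had folds of 12.4 and 19.6, Sox2 9.69, 6.11 and 6.49, Nanog lot 1 35.2, 35.9 and 27.7, and lot 2 21.9, 26.4 and 56.04. The second had folds of 3.95 for Sox2 at 3 passages to 30.8 for Nanog in TKO cells. This region overlapped H3K4me3 in all 3 lists, with folds of 8.22, 6.26 and 5.58. At 109.40 kb, in chr3:34658567-34661142, Nanog had folds of 10.4 to 27.8, while the Oct4 peaks, with folds of 7.82 and 9.51, were at percentiles of 0.54 and 1.23 in their lists.

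Other sites of the Sox2 window belonged mostly to Nanog. The region 83.13 kb downstream, chr3:34633542-34634476, held Nanog in all 6 lists, with folds of 11.5 to 30.9, and Sox2 at 24 h with a fold of 3.78. The region 76.42 kb downstream, chr3:34627036-34627694, held Nanog in both serum lists, with folds of 17.5 for lot 1 and 11.5 for GFP-high cells, and in no 2i list. It is the only merged region of the 3 windows with Nanog in every serum list and in no 2i list, and the site beyond Pou5f1 is the only one with the opposite pattern. In RefSeq, Dnajc19 precedes Sox2 and Atp11b follows it.

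**Figure D3:**
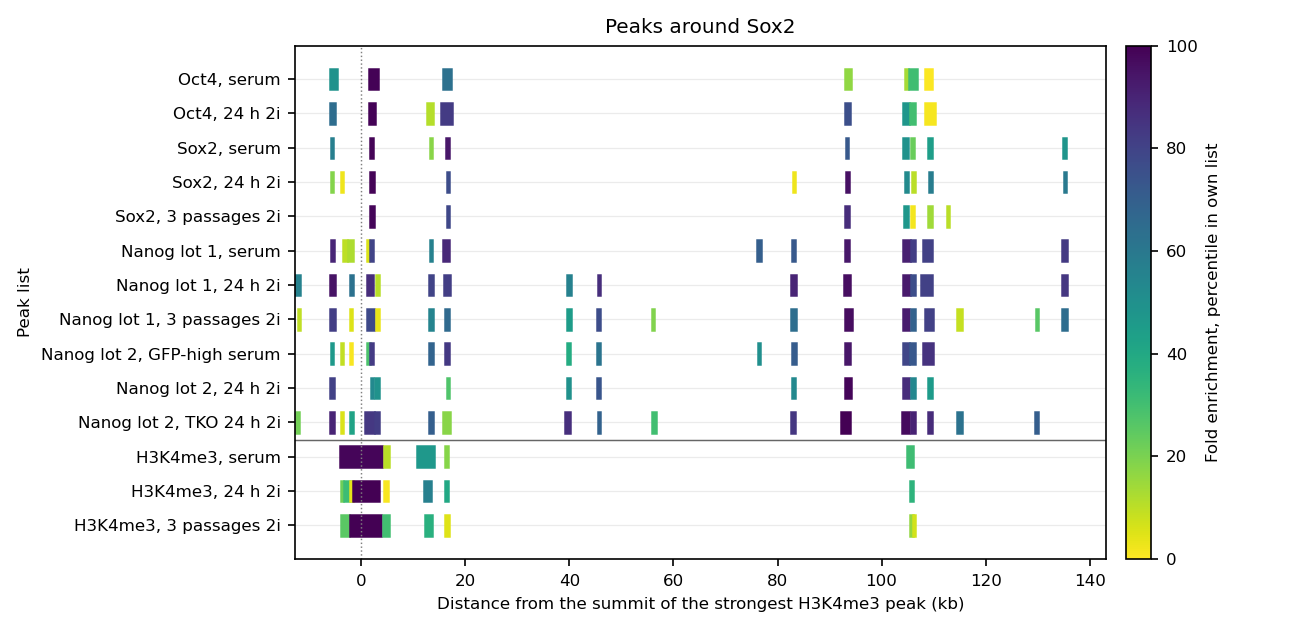
Peaks of the 14 lists (rows) around Sox2, drawn to scale against the distance from the H3K4me3 summit in kb and coloured by the percentile of their fold within their own list. Peaks in every factor row stand 2.02 and 16.59 kb downstream and in the far cluster at 93.40 to 109.40 kb, and between these the rows of Oct4 and Sox2 are empty from 40 to 80 kb.

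At Nanog, the Nanog peaks beside the promoter had lower folds than those 5.34 kb upstream in each of the 5 lists that called both. The promoter is shown because it holds the composite element through which Oct4 and Sox2 are known to act. It is the 250 bases chr6:122707239-122707488 before the first of 2 RefSeq starts, plus strand, GRCm38.p6. Capitals mark the composite element, on the minus strand from 73 to 64 bases before the start, and the Sox element (CATTGT), on the minus strand from 67 to 62, which overlap.
Nanog promoter: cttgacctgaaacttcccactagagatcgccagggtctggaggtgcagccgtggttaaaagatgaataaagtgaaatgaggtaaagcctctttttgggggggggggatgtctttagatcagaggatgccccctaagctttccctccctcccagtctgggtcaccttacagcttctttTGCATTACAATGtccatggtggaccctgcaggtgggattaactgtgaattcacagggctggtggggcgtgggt
The composite element was found in 0.234% of the 32536 promoter sequences, the Sox element in 10.5% and the octamer, which this stretch lacks, in 1.62%.

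The region nearest to the Nanog H3K4me3 summit, 0.52 kb upstream at chr6:122656833-122658580, was called in 10 lists, and its 10 summits spanned 111 bp. Oct4 had folds of 19.3 in serum and 33.8 at 24 h, and Sox2 of 15.8, 10.2 and 9.57. Nanog itself had folds of 7.83, 12.8 and 5.62 with lot 1. With lot 2 it had 11.7 in GFP-high serum and 11.9 in TKO cells, and no peak in KH2 cells at 24 h. Sox2 was at percentiles of 76.4 to 81.5 in its lists, and Nanog was at 14.5 in serum, 59.3 at 24 h and 13.7 at 3 passages with lot 1, at 51.8 in GFP-high serum and at 58.5 in TKO cells.

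A second site near the gene belonged more to Nanog. The region 5.34 kb upstream, chr6:122651829-122653895, was called in 10 lists, with Nanog folds of 15.4, 19.0 and 12.1 for lot 1 and of 24.8, 9.10 and 30.0 for lot 2. Sox2 had folds of 6.57, 4.22 and 4.37. Oct4 was called at 24 h only, with a fold of 8.48. By fold this peak was at a percentile of 0.46 in its list, and by −log10 q at 34.9. Between the last 2 regions, a site 2.55 kb upstream had Nanog peaks in 4 lists, at 3 passages with lot 1 and in all 3 lists of lot 2, with folds of 4.76 to 11.7. It was chosen after its values were seen.

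Farther upstream, the lists differed in which regions they called. The region 17.59 kb upstream, chr6:122639570-122640935, held Sox2 in both 2i lists and not in serum, with folds of 4.38 at 24 h and 4.66 at 3 passages. These Sox2 peaks were at percentiles of 12.8 and 10.1 by fold, with a −log10 q of 5.2 and 7.9. The lowest −log10 q of the Sox2 list of serum was 17.3, so peaks this weak could not appear in it. Nanog was called there at 24 h and 3 passages with lot 1, with folds of 13.1 and 7.16, and in all 3 lists of lot 2, with folds of 8.16 in GFP-high serum, 8.31 in KH2 and 25.2 in TKO cells. A region with summits 44.93 and 43.95 kb upstream, chr6:122612652-122614307, was called in 7 lists for Sox2 or Nanog with folds of 3.41 to 11.1. The region 116.61 kb upstream, chr6:122540894-122541862, had the highest Nanog fold of the window in all lists except GFP-high serum. Nanog had folds of 28.5, 37.7 and 27.8 there with lot 1, and of 28.0, 37.1 and 70.02 with lot 2. Sox2 had folds of 7.17, 7.41 and 5.19, and Oct4 was called at 24 h only, with a fold of 9.13 at a percentile of 1.11.

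Beside Dppa3 all 3 factors met. The H3K4me3 site chr6:122576403-122579200, called in all 3 lists, was taken as that of Dppa3, since it is the first such site before that of Nanog and RefSeq has the order Gdf3, Dppa3, Nanog, Slc2a3. The region chr6:122574082-122575586, 83.26 kb upstream of the Nanog H3K4me3 summit and just before that site, was called in all 11 lists. Oct4 had folds of 24.0 in serum and 44.8 at 24 h, its highest in the window in both lists. Sox2 had folds of 23.5, 14.7 and 13.5, at percentiles of 90.4 to 92.9 and likewise its highest in the window. Nanog had folds of 22.9, 19.9 and 10.02 with lot 1 and of 15.8, 8.70 and 33.9 with lot 2. The Oct4 and Sox2 folds in the window were thus higher beside Dppa3 than at the promoter of Nanog, within each of their 5 lists.

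The region before it, chr6:122557541-122559307, 99.34 kb upstream of the Nanog H3K4me3 summit, was also called in all 11 lists and overlapped H3K4me3 in all 3. Oct4 had folds of 16.3 and 37.0, Sox2 of 9.57, 8.22 and 4.40, Nanog lot 1 of 9.85, 13.4 and 8.62, and lot 2 of 11.02, 8.89 and 16.7. Oct4 at 24 h was at a percentile of 85.2, above the percentiles of 6.02 to 74.9 in all other lists. The RefSeq order places Gdf3, a ligand of the TGF-beta family, before Dppa3, and this site was not assigned to either gene.

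Downstream of Nanog, the region chr6:122714209-122717480 was called in all 11 lists at a summit 58.41 kb away. Oct4 had folds of 23.9 and 24.5 there, Sox2 of 9.36, 5.28 and 5.81, Nanog lot 1 of 21.2, 21.7 and 19.9, and lot 2 of 37.9, 15.2 and 37.4. The region 54.74 kb downstream, chr6:122711858-122713371, held Nanog in all 6 lists with folds of 14.5 to 25.4, and Sox2 at 24 h with a fold of 4.71. A region 37.09 kb downstream, chr6:122694603-122696030, was called in 7 lists with folds of 6.19 to 19.0. The gene after Nanog in RefSeq is Slc2a3, a glucose transporter.

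**Figure D4:**
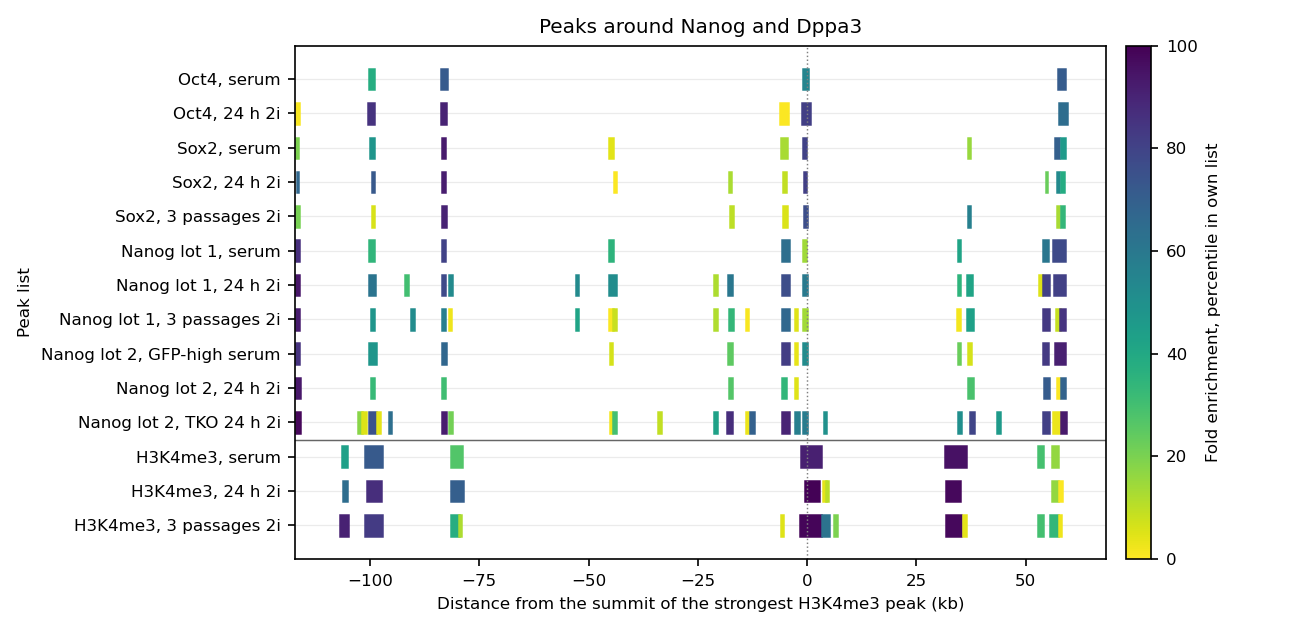
Peaks of the 14 lists (rows) around Nanog and Dppa3, drawn to scale against the distance from the H3K4me3 summit of Nanog in kb and coloured by the percentile of their fold within their own list. Peaks in all factor rows stand 99.34 and 83.26 kb upstream and about 58.41 kb downstream, and the row of TKO cells has the most peaks.

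The plot of folds at 5 sites sets these values side by side. Within each Oct4 and Sox2 list the Sox2 site 2.02 kb downstream was the highest of the 5, and within each Nanog list the Sox2 site 93.40 kb downstream was. These Sox2 sites were picked for the plot because they held the highest folds in the windows, so their rank was fixed by that choice.

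**Figure D5:**
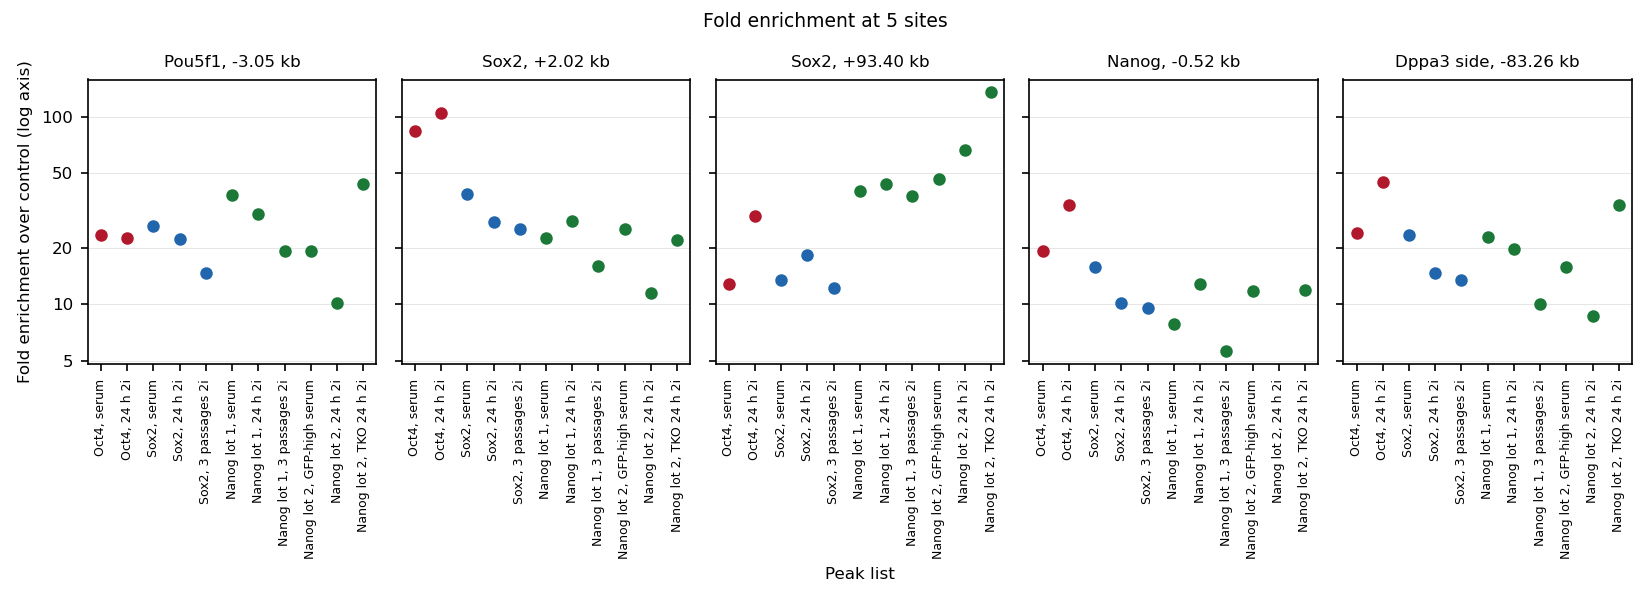
Fold enrichment over control (log axis) of the peak at each of 5 sites, 1 point for each of the 11 factor lists (red Oct4, blue Sox2, green Nanog), with no error bars because each list gives 1 value. The highest point is 135.3, of Nanog in TKO cells at the Sox2 site 93.40 kb downstream, and Nanog lot 2 at 24 h has no point at the Nanog promoter site.

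The change from serum to 2i was then read from which regions each list called. Oct4 was called at 15 regions in serum or at 24 h, and at 12 of them in both, or 80.0% against 45.9% of Oct4 regions in the genome. None was called in serum only (0.0% against 11.1%), and 3 were called at 24 h only (against 43.0%). These 3 are the regions 13.42 kb downstream of Sox2, and 5.34 and 116.61 kb upstream of Nanog, whose Oct4 peaks were all at percentiles of 11.2 or lower by fold. By −log10 q they were at 36.5, 34.9 and 5.95, in that order. At each of them Sox2 and Nanog were called in serum already. With both Oct4 lists at equal length, 1 region was called in serum only and 1 at 24 h only.

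Sox2 was called at 26 regions in serum or at 24 h, with 18 in both (69.2% against 44.2%), 4 in serum only (15.4% against 22.4%) and 4 at 24 h only (15.4% against 33.3%). Between serum and 3 passages, 18 of 24 regions were shared (75.0% against 43.8%), 4 were called in serum only (16.7% against 42.4%) and 2 at 3 passages only (8.33% against 13.8%). Between 24 h and 3 passages, 16 of 26 were shared (61.5% against 44.5%), 6 were called at 24 h only (23.1% against 47.3%) and 4 at 3 passages only (15.4% against 8.20%). With a −log10 q of at least 10 in every list, 7 Sox2 regions were in serum only in either comparison, 0 at 24 h only and 0 at 3 passages only against serum. In the Sox2 window, Sox2 was called at 8 regions in serum, 9 at 24 h and 6 at 3 passages. The whole lists held 13128, 15310 and 8749 peaks, an order that the counts of this window follow. At Pou5f1 the counts were 6, 4 and 6, which do not follow it, and at Nanog-Dppa3 they were 8, 9 and 8.

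Nanog with lot 1 was called at 40 regions in serum or at 24 h. Of these, 24 were in both (60.0% against 46.7%), 3 in serum only (7.50% against 8.94%) and 13 at 24 h only (32.5% against 44.4%). Between serum and 3 passages, 24 of 42 were shared (57.1% against 47.0%), 3 were in serum only (7.14% against 16.8%) and 15 at 3 passages only (35.7% against 36.2%). Between 24 h and 3 passages, 33 of 43 were shared (76.7% against 60.6%), 4 were at 24 h only (9.30% against 28.8%) and 6 at 3 passages only (against 10.6%). At equal length 8 regions were at 24 h only and 9 at 3 passages only against serum. In the Nanog-Dppa3 window, Nanog of lot 1 was called at 9 regions in serum, 16 at 24 h and 17 at 3 passages. The whole lists held 25534, 41755 and 33185 peaks in the same order, so both 2i lists were also longer. The window holds other genes too, so not every such region need be auto-binding.

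Lot 2 gave the opposite order. From GFP-high serum to 24 h it shared 20 of 32 regions (62.5% against 47.9%), with 10 in GFP-high serum only (31.2% against 33.0%) and 2 at 24 h only (6.25% against 19.1%). The 24 h count was 4 with lists of equal length and 6 with regions built from summits, and the count of GFP-high serum was 5 with peaks up to 1000 bp apart joined. In the Nanog-Dppa3 window lot 2 called 12 regions in GFP-high serum and 9 at 24 h. The whole lists held 26415 and 21893 peaks, in the same order. In KH2 cells at 24 h the lots shared 21 of 38 regions (55.3% against 40.9%), with 16 in lot 1 only (42.1% against 51.5%) and 1 in lot 2 only (2.63% against 7.52%). The one region with lot 2 alone is that 2.55 kb upstream of Nanog. Between the serum lists of the 2 lots, lot, cell population and the number of samples differ together. Between the 24 h lists of KH2 cells, lot and the number of samples do. Within lot 2, medium and the GFP-high label do. In each comparison the items that differ cannot be told apart.

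Nanog in TKO cells was called at every window region that lot 2 called in KH2 cells at 24 h. Of 48 regions, 22 were shared (45.8% against 33.2%), none was in KH2 only (0.0% against 15.1%) and 26 were in TKO only (54.2% against 51.7%, a share near the background). At equal length 16 were in TKO only and 2 in KH2 only. By window, TKO and KH2 cells had 9 and 4 regions at Pou5f1, 16 and 9 at Sox2, and 23 and 9 at Nanog-Dppa3. The list of TKO cells was also the longer over the genome, with 38518 peaks against 21893 in KH2 cells. No region that all 5 KH2 Nanog lists called was missing in TKO cells (0.0% against 3.39%).

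A total of 10 regions had Nanog in TKO cells and in no KH2 list, or 16.9% against 20.1%. None lay in the Sox2 window, 2 lay in the Pou5f1 window, 37.67 and 55.57 kb downstream, and 8 lay in the Nanog-Dppa3 window. Their folds ran from 6.41 to 14.5 with a median of 8.93, and none held Oct4 or Sox2. Those in the Nanog-Dppa3 window were 102.29, 101.04, 97.94, 95.34, 33.82 and 12.53 kb upstream and 4.00 and 43.89 kb downstream. The first 4 flank the site of all 11 lists 99.34 kb upstream. This window is on chromosome 6, of which TKO cells had the raised share of peaks given above, and the part of that in these counts was not tested.

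H3K4me3, the promoter mark, overlapped 18 of the 59 regions in serum (30.5% against 10.3%), 16 at 24 h (27.1% against 8.83%) and 21 at 3 passages (35.6% against 10.5%). It did so in all 3 conditions at 15 regions (25.4% against 7.99%) and in none at 38 (64.4% against 87.7%). The windows were placed around known genes, and the part of that in these shares was not tested.

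The windows held 23 H3K4me3 sites, of which 13 were called in all 3 lists, 5 in 2 lists and 5 in 1 list. At Pou5f1 the folds were 31.0 in serum, 24.2 at 24 h and 47.9 at 3 passages. At Sox2 they were 35.2, 37.1 and 56.1, and at Nanog 26.3, 31.3 and 41.8. The Sox2 site was among the widest in the genome: its serum peak covered 8007 bp, at a percentile of 99.9 by width, and its widest peaks at 24 h and at 3 passages covered 4907 and 6025 bp. The Dppa3 site had folds of 7.48, 11.7 and 7.76, at percentiles of 27.2, 70.1 and 37.6. The sites of the 3 factor genes were at percentiles of 91.0 or more in all 3 lists. As anchors they were picked for having the highest fold in their window, which in part fixes these percentiles. The labelled cell type was not checked, since expression was not analysed here.

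Where 2 factors shared a region, their summits were close. In serum the Oct4 and Sox2 summits were a median of 33 bp apart over 12 regions, against 43 bp over 3841 in the genome, and within 100 bp at 66.7% against 82.5%. At 24 h the median was 35 bp over 14 regions, against 40 bp over 6151. Sox2 and Nanog (lot 1) summits were a median of 17.5 bp apart over 20 regions in serum, 22 bp over 20 at 24 h and 45 bp over 17 at 3 passages, against 26, 32 and 32 bp in the genome. Oct4 and Nanog summits were a median of 39 bp apart over 11 regions in serum and 35 bp over 14 at 24 h, against 43 bp in both conditions. These distances are close to those of the genome.

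The 25 regions not placed by the naming rule were called in 1 to 5 lists, 6 of them in 1 list. Their 73 peaks had folds of 3.78 to 30.9 with a median of 8.27.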

How the data were processed

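ChIP-seq peak lists of KH2 and TKO mouse embryonic stem cells were used, 14 lists from 22 of 36 samples. Per the submitters' processing notes, MACS2, Bowtie 0.12.7, BWA 0.5.7 and the build mm9 were used. Which aligner made which list, and which samples were pooled, is not stated in the labels or headers. Behind 6 lists the labels show a single sample. The deposited fold enrichment is the authors' ratio over control, and the deposited −log10 q is the authors' q-value. The lists give no read counts, so depth is unknown and no interval was given. Peaks of the placed chromosomes that shared 1 bp or more were merged into regions. A region counts as called in each list with a peak inside it. A summit site joins summits at most 200 bp apart within a region. Percentages set against a second value are shares of the same kind of region in the genome. Regions were named by position if called in at least 6 factor lists, if they held a peak in the top 10% of its list by fold, if a factor was called in all lists of 1 medium and none of the other, or if Nanog was called in TKO alone or in all KH2 lists and not in TKO. Others are marked where named. The members, windows and lists were chosen with earlier results of these data known. Samples of H3K27me3, of whole-cell extract and of RNA were not used here. The labels call the Sox2 molecule RNA, but these libraries carry an antibody and hold peaks. RefSeq promoters were matched by symbol for 3 of 4 genes. Python 3.11.15 with pandas 2.3.3 was used, and the code was tested on simulated data.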

Additional observations from a re-analysis of the deposited data

How the results depend on the processing

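Of 152 recomputed counts, 127 stayed within 1.5 times the reported count, including all 30 with an overlap of 50% of the shorter peak. With lists of equal length, the windows held 21 regions (4 at Pou5f1, 8 at Sox2 and 9 at Nanog-Dppa3). Nanog of lot 1 then had 8 regions at 24 h only and 9 at 3 passages only against serum, and lot 2 had 4 at 24 h only against GFP-high serum. TKO cells had 16 regions of their own and KH2 cells 2. Sox2 had 2 at 24 h only and 5 at 3 passages only, Oct4 had 1 in serum only and 1 at 24 h only, and H3K4me3 met 4 regions in each condition. With a −log10 q of 10 or more, Sox2 had 7 regions in serum only and 0 at 24 h only, and 7 in serum only and 0 at 3 passages only. With peaks up to 1000 bp apart joined, GFP-high serum had 5 regions of its own and TKO cells 15. With regions built from summits up to 200 bp apart, 5 were in serum only with lot 1, 6 at 24 h only with lot 2 and 4 at 3 passages only for Sox2. Equal length and the −log10 q minimum leave fewer peaks, and the joining and summit settings redraw the regions. Beyond that the cause was not tested. Taking the top peak of each list and window by −log10 q in place of fold shifted its percentile by at most 31.8 points over 33 cases. No paired analysis was possible because the lists hold no value per replicate, and for the same reason no replicate could be left out.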
